A study of Mus musculus with 10 samples.

Results

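Liver RNA was compared between mice whose father lacked the insulin receptor in hepatocytes and mice whose mother did. The comparison takes 6 of the 10 libraries of the series, chosen by their labels. FL offspring (FL 5, FL 6 and FL 7) had a LIRKO father (floxed insulin receptor alleles with 1 copy of Albumin-Cre, whose Cre is active in hepatocytes) mated to a control mother. ML offspring (ML 8, ML 9 and ML 10) came from the reciprocal cross, a LIRKO mother with a control father. The 4 control libraries had control parents on both sides, floxed for the same gene without Cre, so every parent carried the floxed alleles. Controls entered the fit in the estimate of the spread, the filter on low counts and the scaling of libraries. Their means are not part of the contrast and are given here as a reference. Missing from the labels are the Cre genotype of the offspring themselves, their sex, age, litter and diet, and whether each library is a separate animal, so a p-value measures the spread between these libraries. Between FL and ML a positive log2 difference means higher in FL, and against the controls it means higher than in the controls.

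The insulin receptor starts the signal by which insulin restrains glucose output and promotes lipid synthesis in hepatocytes. Reciprocal crosses ask whether it matters which parent had the defect, since a father passes on mainly his germ cells, while a mother also provides the uterine environment and milk. A pair of further regulators recurs below. One is the growth hormone axis, which through STAT5B and BCL6 sets the genes that differ between male and female mouse liver. The other is PPARA, a fatty acid sensing nuclear receptor that switches on fatty acid oxidation.

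Between FL and ML, 1 gene of 14820 tested passed, Cyp2b9, which was lower in FL. This is 0.00675% of the genes tested, and no gene passed as higher in FL. The test was edgeR's quasi-likelihood test with a Benjamini-Hochberg adjusted p under 0.05. The gene next in rank, Moxd1, was on the other side of the threshold with higher values in FL. All other genes named below had adjusted p-values of at least 0.238 in that test, so their values are descriptions of these libraries. An unadjusted p under 0.05 was reached by 1125 genes higher in FL (7.59%) and 1839 higher in ML (12.4%), where chance gives 741 in all. DESeq2 called 31 genes (0.117% of those it tested) and limma-voom with sample quality weights 4 (0.027%), and edgeR called 1 without ML 9 (0.00653%). Of the genes named below, DESeq2 called Moxd1, Bhlha15, Asns, Tbx3, Atxn1, Bcl6 and Egr1 as higher in FL. As higher in ML it called Cyp2b9, Cyp4a14, Cyp4a10, Acot3, Wfdc2, Slc22a27, Tff2, Vnn1, Hsd17b6, Tpm2, Dmbt1, Retsat and Vldlr.

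Library totals ran from 23192571 to 31116742 counts in FL and from 26614915 to 34568205 in ML. ML 9 stood apart from the other 9 libraries on the first principal component, which held 53.23% of the variance. In ML 9, short genes, under 1000 bp of exon, had a median log2 deviation of 1.67 from their mean over the libraries, while this was -0.10 in ML 8, 0.34 in ML 10 and -0.56 to -0.26 in FL. Ribosomal RNA genes took 5.49% of its counts against 0.925% to 2.79% in the others. The summed level of 10 skeletal muscle markers was 610.3 CPM in ML 9 and at most 1.25 CPM elsewhere. CPM is the count scaled to library size with TMM factors. Without ML 9, 733 of 15305 genes tested had an unadjusted edgeR p under 0.05, in place of 2964. Cyp2b9 was again the gene that passed. The count was 2959 with control 1 left out as well, and 4247 with only control 1 left out. Since control 1 enters the spread, leaving out ML 9 alone does not show how many genes rested on ML 9. Because ML 9 stood apart, values without it are given beside the gene groups below, and beside a single gene where its log2 difference moved by over 1.5 times.

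**Figure D1:**
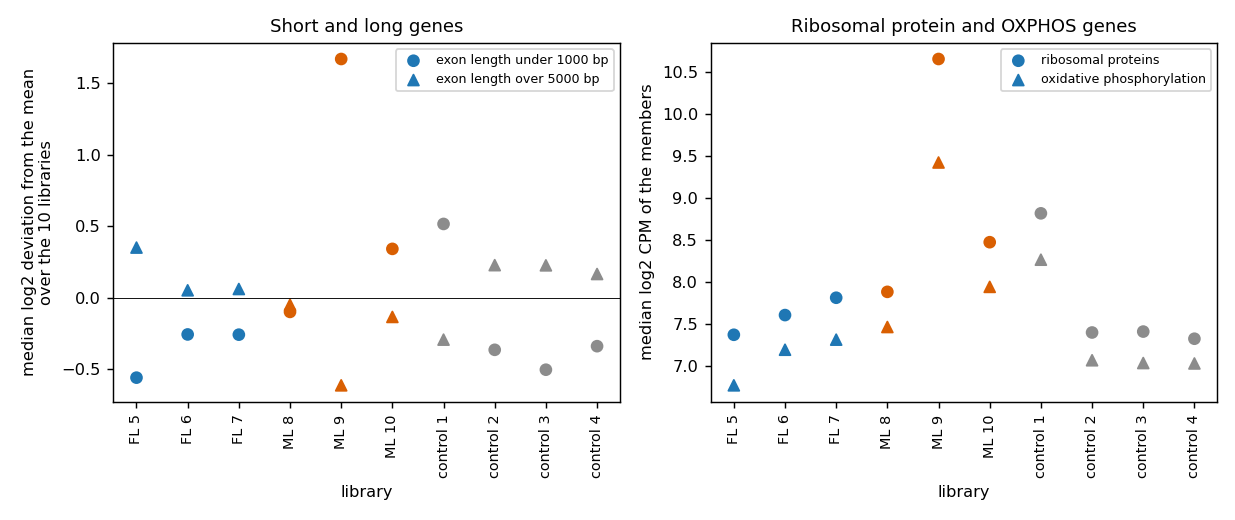
Left, median log2 deviation of short genes (circles) and long genes (triangles, over 5000 bp of exon) from their mean over the 10 libraries, by library. Right, median log2 CPM of cytosolic ribosomal protein genes (circles) and nuclear oxidative phosphorylation genes (triangles). FL libraries are blue, ML orange and controls grey. ML 9 is highest for short genes and for both lists.

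The tissue label was checked against markers. Albumin, the main hepatocyte secretory product, had 41400, 46600 and 41600 CPM in FL and 39200, 48600 and 58200 in ML, at a log2 difference of -0.17 (SE 0.30). All 12 hepatocyte markers were tested, 5 above and 7 below 0 with a median of -0.23, or -0.07 without ML 9. Insr, which encodes the insulin receptor (ENSMUSG00000005534, chromosome 8, 3122061 to 3279617) had 2096, 2049 and 2041 counts in FL and 2072, 432 and 1779 in ML. Its levels of 59.3 to 77.6 CPM in FL lay above the 28.2 to 55.2 CPM of ML. The log2 difference was 0.51 (SE 0.36, edgeR adjusted p 0.401), 0.24 without ML 9, and -0.12 once each library's trend with gene length and GC content was taken out (the trend-corrected fit). Which exons Cre deletes is not in the labels, so whole-gene counts are a partial check of Cre genotype.

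Proximal promoters are shown for Cyp2b9 and Moxd1, the genes with the lowest p, and for Asns, which ranked 15 by p and was chosen after its values were seen as a gene that passed with limma-voom and sample quality weights. The letters upstream of each can be read beside its values. Each is the 250 bases before the RefSeq start on GRCm38.p6, 5′ to 3′ on the gene's strand. Capitals mark AGGTCA, the half-site of nuclear receptors, in Cyp2b9 (chr7:26173159-26173408, plus strand). They mark TTCNNNGAA, the letters that STAT5 proteins bind, in Moxd1 (chr10:24223267-24223516, plus strand), and TGATGNAA, the composite site of ATF4 and C/EBP proteins, in Asns (chr6:7693210-7693459, minus strand).
Cyp2b9: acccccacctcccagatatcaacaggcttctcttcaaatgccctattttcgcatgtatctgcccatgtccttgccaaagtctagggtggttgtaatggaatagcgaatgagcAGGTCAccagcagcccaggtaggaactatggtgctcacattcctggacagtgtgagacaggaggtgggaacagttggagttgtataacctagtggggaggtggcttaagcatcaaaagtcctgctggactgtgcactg
Moxd1: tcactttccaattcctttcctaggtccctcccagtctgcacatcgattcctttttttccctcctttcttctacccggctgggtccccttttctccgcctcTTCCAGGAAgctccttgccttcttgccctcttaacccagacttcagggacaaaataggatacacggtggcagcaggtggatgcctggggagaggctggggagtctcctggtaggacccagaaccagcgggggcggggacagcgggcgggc
Asns: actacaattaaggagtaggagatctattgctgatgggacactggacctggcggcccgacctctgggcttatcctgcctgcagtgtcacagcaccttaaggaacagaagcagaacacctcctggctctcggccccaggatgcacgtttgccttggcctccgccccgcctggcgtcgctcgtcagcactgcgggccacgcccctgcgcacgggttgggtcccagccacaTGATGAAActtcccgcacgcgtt

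The match begins 138 bases before the RefSeq start in Cyp2b9, 150 in Moxd1 and 23 in Asns. In GENCODE the Asns gene runs to 7693254, past its RefSeq start, so this match lies inside the gene as annotated there. All 3 motifs were searched on both strands in the same windows of 27025 genes. AGGTCA was in 15.8% of them, TTCNNNGAA in 8.13% and TGATGNAA in 3.91%. Among the 22 female-biased liver genes with a window, 8 held AGGTCA (36.4%), Cyp2b13 and Slc22a27 among them, and 3 held TTCNNNGAA (13.6%). Of 20 male-biased genes, 5 held AGGTCA (25%) and 3 held TTCNNNGAA (15%), Moxd1 among the latter. Of 24 fatty acid oxidation genes and PPARA targets, 4 held AGGTCA and 3 held TTCNNNGAA. Of 24 genes of the ATF4 response, 7 held TGATGNAA, 5 held TTCNNNGAA and 1 held AGGTCA. A match is a run of letters, not evidence that a factor binds there.

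Cyp2b9 (ENSMUSG00000040660, chromosome 7, 26173411 to 26210661, plus strand) encodes a cytochrome P450 that is expressed mainly in female mouse liver. It had 3, 5 and 1 counts in FL 5, FL 6 and FL 7, and 433, 67 and 557 counts in ML 8, ML 9 and ML 10. These are 0.111, 0.145 and 0.0291 CPM in FL and 11.4, 4.37 and 17.3 CPM in ML. The FL libraries all sit near the bottom of detection, and the lowest ML library is far above the highest FL library. The log2 difference was -6.81 (SE 0.74, 95% interval -8.42 to -5.21), or 113-fold, lower in FL at an edgeR adjusted p of 0.0144. Controls had 8.03, 7.31, 5.85 and 14.6 CPM, inside the range of ML for every library.

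The direction and size of the Cyp2b9 difference held in each alternative, from -7.37 with a surrogate variable to -6.33 without ML 10. Its call did not hold. The edgeR adjusted p was 0.165 without FL 5, 0.129 without FL 6, 0.145 without FL 7, 0.0574 without ML 8 and 0.0644 in a fit of the 6 libraries alone. Limma-voom gave an adjusted p of 0.0836. Over the edgeR fits, voom and DESeq2 the adjusted p ran from 2.14e-16 (DESeq2) to 0.165. Near-identical Cyp2b genes can share reads. Cyp2b13, the neighbouring female-biased gene, was too low to test, with at most 0.0741 CPM in FL and 0.105 to 0.806 in ML. Cyp2b10, the member induced by drugs through the receptor CAR, had 0.407, 2.26 and 1.75 CPM in FL and 5.15, 1.56 and 19.4 in ML, and the groups overlapped.

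Moxd1 (ENSMUSG00000020000, chromosome 10, 24223517 to 24302790, plus strand) is a monooxygenase-like gene expressed mainly in male mouse liver. It had 1584, 1820 and 5477 counts in FL and 21, 1 and 1 in ML, or 58.7, 52.7 and 159 CPM against 0.552, 0.0652 and 0.031 CPM. Every FL library was well above every ML library, and ML 9 and ML 10 were near 0. The log2 difference was 8.52 (SE 1.14, 95% interval 6.02 to 11.01) with an edgeR adjusted p of 0.0644, just outside the threshold. Controls lay with ML at 0.0448 to 0.518 CPM. Moxd1 passed with limma-voom (adjusted p 0.0202), with DESeq2 (1.23e-07), in the trend-corrected fit (0.0456) and without control 3, its highest control (0.0135). Without ML 9 its log2 difference was 8.20 with an edgeR adjusted p of 0.567.

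**Figure D2:**
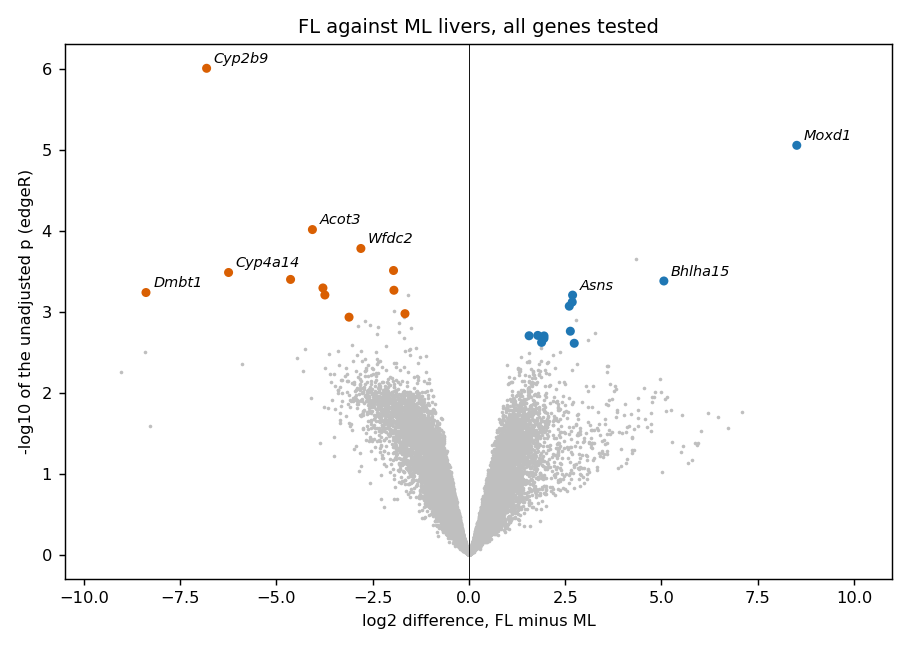
Log2 difference between FL and ML (x axis) against -log10 of the unadjusted edgeR p (y axis), a point per gene tested. Blue and orange points are the 12 genes per direction taken by the naming rule, and Cyp2b9 and Moxd1 lie above all others.

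Female-biased liver genes had 20 members tested, 2 above and 18 below 0, with a median log2 difference of -1.60. Over all genes tested 52.06% lay above 0 and the median was 0.04. The median was -1.66 without ML 9 and -1.45 in the trend-corrected fit. Cyp2b9 was the member that passed. In 8 members all ML libraries lay above all FL libraries, and in none the reverse, where the share over all genes was 15.1% higher in ML, 16.6% higher in FL and 31.7% in either direction. Those 8 include Cyp4a14, Cyp4a10 and Acot3, which are counted again among the PPARA targets below. Against the same 4 controls, the members' median was -0.72 in FL and 0.59 in ML.

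Slc22a27, an organic anion transporter, had 0, 0.174 and 0.116 CPM in FL and 1.81, 1.63 and 0.899 in ML, a log2 difference of -3.79 (SE 0.80). Its relative Slc22a29 had 0, 0.232 and 0.146 CPM in FL and 1.26, 0.652 and 0.62 in ML. Abcd2, a peroxisomal transporter of fatty acids, had 1.48, 2.03 and 1.46 CPM in FL against 4.62, 4.3 and 6.3 in ML. In all 3 genes the groups did not overlap. Slc22a29 and Abcd2 were chosen after their values were seen, as were the genes given below as such.

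Of 29 male-biased liver genes tested, 17 lay above and 12 below 0, with a median of 0.17. The median was 0.31 without ML 9, 0.40 in the trend-corrected fit, 0.51 in that fit without ML 9 and 0.52 with a surrogate variable. In 9 of them, Moxd1 and Bcl6 included, every FL library was above every ML library, where the share over all genes was 16.6%. In 1 it was the reverse, against 15.1%. That 1 was Elovl3, a fatty acid elongase, at 51.8, 61.7 and 75.8 CPM in FL and 84.3, 101 and 157 in ML (log2 difference -0.86, SE 0.48). Among the 9 were Selenbp2, with 1470, 2190 and 1310 CPM in FL against 456, 746 and 248 in ML (1.78, SE 0.74), and the complement component C6, with 463, 329 and 377 CPM against 114, 110 and 144 (1.67, SE 0.49). Cyp7b1, an oxysterol hydroxylase, had 725, 422 and 677 CPM in FL and 249, 286 and 344 in ML. Serpina1e, an antitrypsin gene with near-identical relatives, had 12600, 12300 and 10000 CPM in FL and 2750, 7730 and 4410 in ML. Elovl3, Selenbp2, C6, Cyp7b1 and Serpina1e were chosen after their values were seen.

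Bcl6 and Cish, genes of growth hormone signalling, lay apart between the groups, while the list they belong to did so about as often as all genes. Bcl6, a repressor that opposes STAT5 at female-biased genes, had 51.6, 70.1 and 22 CPM in FL and 7.64, 10.7 and 4.9 in ML, so the lowest FL library was above the highest ML library. Its log2 difference was 2.63 (SE 0.65, edgeR adjusted p 0.238). Controls spanned both groups at 4.27 to 28 CPM. Cish, a feedback inhibitor that STAT5 induces, had 8.22, 4.37 and 4.19 CPM in FL and 36.4, 45.8 and 17.7 in ML (-2.57, SE 0.87). Controls ranged from 0.725 to 24.7 CPM of Cish, which was chosen after its values were seen. The 19 genes of the growth hormone and IGF axis as a list lay at a median of -0.16 with and without ML 9, with 7 above and 12 below 0 in the fit of all libraries. Without overlap, 2 of the 19 were higher in FL and 4 higher in ML. The shares over all genes were 16.6% and 15.1%, or 31.7% in either direction.

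All 6 libraries held Y-linked transcripts, with Kdm5d, Uty, Eif2s3y and Ddx3y each at 4.63 CPM or more. The 4 controls held them too, each at 7.98 CPM or more. Xist, transcribed from the inactive X, had 5.38 CPM in ML 8 and at most 0.145 CPM in each of the other 9 libraries. Its part in the female-biased genes was not tested, and Cyp2b9 lay at -6.79 without ML 8.

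**Figure D3:**
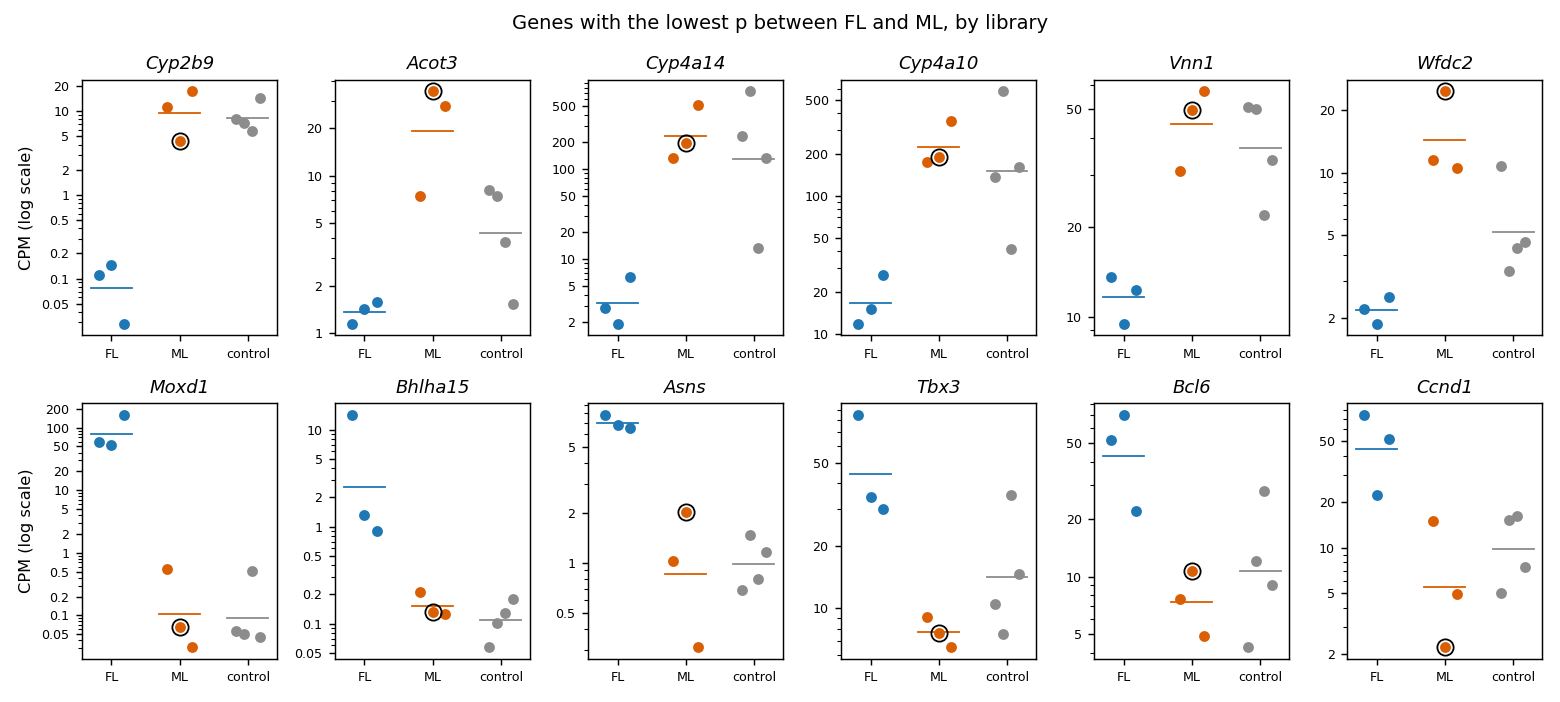
CPM on a log axis for 12 of the genes with the lowest p between FL and ML, a point per library, with bars at the geometric mean of each group. The top row holds genes higher in ML and the bottom row genes higher in FL, and ML 9 is circled. In all 12 genes the FL and ML libraries do not overlap, while for most of them the controls lie with ML or between.

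Fatty acid oxidation genes and PPARA targets had 34 members tested, 3 above and 31 below 0, with a median log2 difference of -0.89. It was -0.80 without ML 9, -0.97 in the trend-corrected fit and -0.65 with a surrogate variable. None passed, and 20 had an unadjusted edgeR p under 0.05, all higher in ML, where the share over all genes was 12.4%. In 21 of the 34 every ML library lay above every FL library, against 15.1% over all genes, and in 1 the reverse, against 16.6%. Against the controls both groups shared, the median was -0.56 in FL, with 33 of 34 below 0, and 0.33 in ML, with 24 above 0. Summed CPM over the list was 7772 to 8551 in FL, 9211 to 14130 in ML and 10240 to 15400 in controls.

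The widest differences were in PPARA targets of omega-oxidation and acyl-CoA hydrolysis. Cyp4a14, a fatty acid omega-hydroxylase (ENSMUSG00000028715, chromosome 4, 115486200 to 115496142), had 2.81, 1.91 and 6.32 CPM in FL and 131, 194 and 513 in ML. The gap exceeded the spread within each group, at a log2 difference of -6.24 (SE 1.25, edgeR adjusted p 0.238). Controls ran from 13.1 to 730 CPM, all above FL. Its neighbour Cyp4a10 had 11.9, 15.1 and 26.7 CPM in FL and 177, 191 and 350 in ML (-3.74, SE 0.81). The Cyp4a genes are close relatives that can share reads.

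Acot3, an acyl-CoA thioesterase of peroxisomes (ENSMUSG00000021228, chromosome 12, 84052144 to 84060402), had 1.15, 1.42 and 1.57 CPM in FL and 7.46, 34.4 and 27.9 in ML (-4.07, SE 0.70). It passed when no filter on low counts was applied, at an edgeR adjusted p of 0.0479, and with DESeq2 at an adjusted p of 1.7e-06. Its family members had the same order of groups without overlap, at -2.41 (SE 0.74) for Acot1, -2.15 (SE 0.57) for Acot2 and -1.82 (SE 0.44) for Acot4, and were chosen after their values were seen. Vnn1, a pantetheinase and PPARA target, had 13.6, 9.5 and 12.3 CPM in FL and 30.9, 49.7 and 57.2 in ML, at -1.96 (SE 0.39).

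A beta-oxidation enzyme and a fatty acid receptor lay closer together. Ech1, an auxiliary enzyme of beta-oxidation, had 172, 219 and 243 CPM in FL and 307, 999 and 547 in ML. Its log2 difference was -1.54 (SE 0.41), or -1.03 without ML 9, with no overlap between the groups. Cd36, a fatty acid uptake receptor outside this list, had 15.5, 18.1 and 25.7 CPM in FL and 71.7, 36.1 and 46 in ML (-1.38, SE 0.36). Ech1 and Cd36 were chosen after their values were seen.

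**Figure D4:**
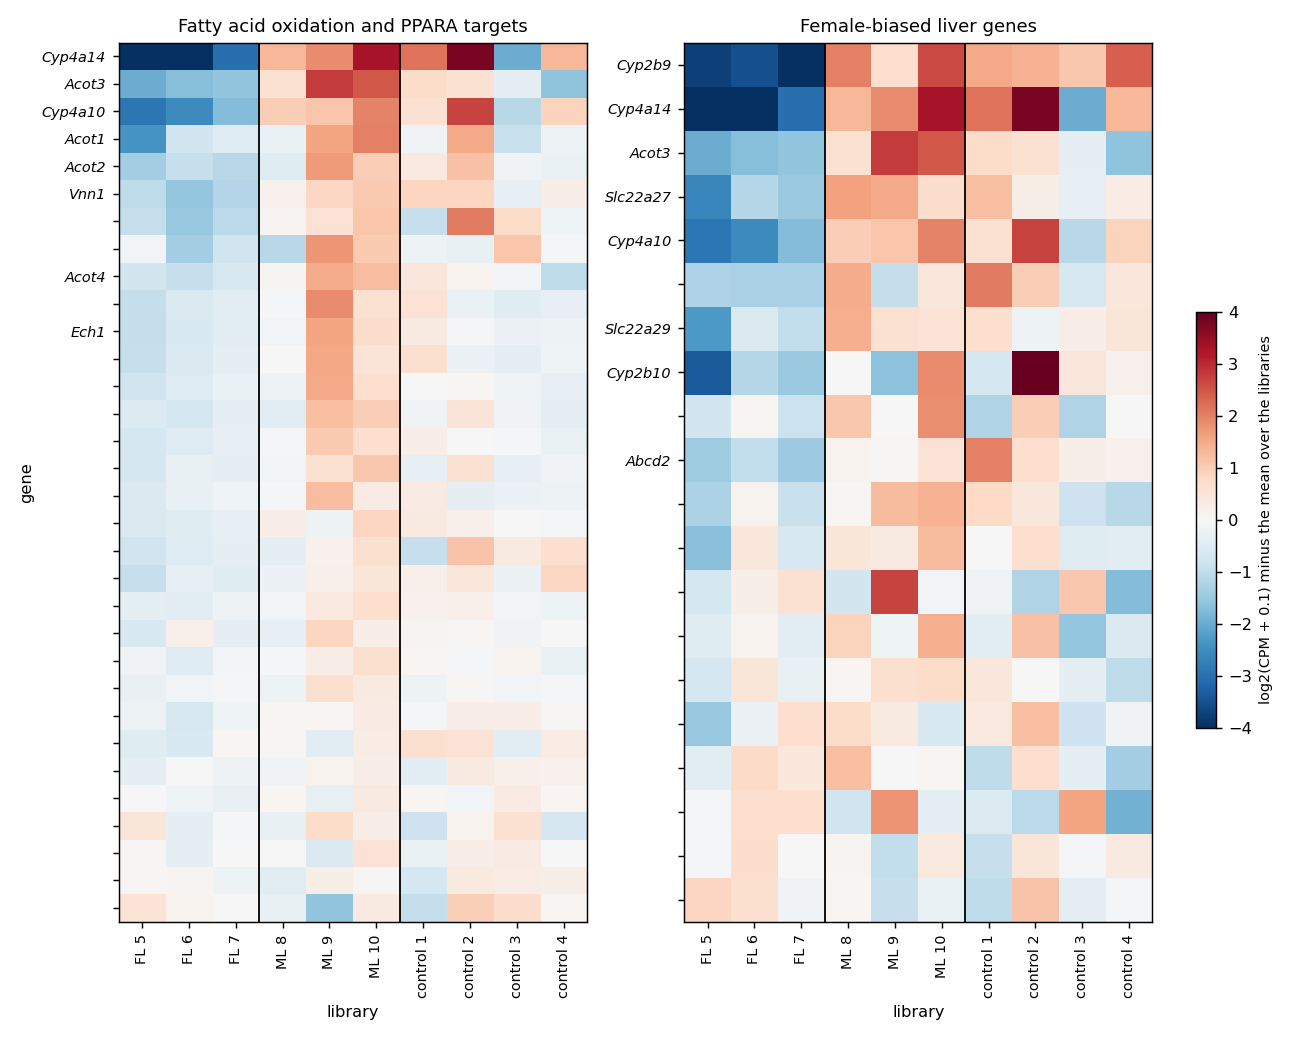
Level of tested members in each library, as log2(CPM + 0.1) minus its mean over the 10 libraries, for fatty acid oxidation genes and PPARA targets (left) and female-biased liver genes (right), sorted by the log2 difference between FL and ML, with genes named in the text labelled. Members in the upper rows are blue in the 3 FL libraries and mostly red in the 3 ML libraries, and Cyp4a14, Cyp4a10 and Acot3 belong to both lists.

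Genes of cholesterol synthesis and uptake had 26 members tested, 19 above and 7 below 0, at a median of 0.79, or 0.61 without ML 9, where 24 lay above 0. None passed, and 5 had an unadjusted edgeR p under 0.05, all higher in FL, where the share over all genes was 7.59%. Dhcr7, the last enzyme of the synthesis pathway, had 63.1, 82.3 and 54.7 CPM in FL and 45.7, 25.2 and 18.4 in ML, without overlap, at a log2 difference of 1.16 (SE 0.39). Against the shared controls the list's median was -0.34 in FL and -1.01 in ML.

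The lipogenesis list lay at a median of 0.39, with 18 of 27 above 0, and at 0.19 without ML 9. It was 0.17 in the trend-corrected fit, 0.03 in that fit without ML 9 and 0.15 with a surrogate variable. Fasn, the fatty acid synthase, had 452, 274 and 170 CPM in FL and 125, 59.5 and 32.6 in ML (2.04, SE 0.58), and Acaca, which makes its substrate malonyl-CoA, 94.6, 55.5 and 48.9 CPM against 41.8, 14 and 18.4. Fasn and Acaca lay at 1.25 and 0.67 in the trend-corrected fit, and both were chosen after their values were seen. Insulin signalling genes had 32 of 37 above 0 at a median of 0.50, which was 0.31 without ML 9 and 0.11 in the trend-corrected fit. The median was -0.007 in that fit without ML 9, with 18 above and 19 below 0, and -0.014 with a surrogate variable.

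Asns, which makes asparagine and is a target of ATF4 (ENSMUSG00000029752, chromosome 6, 7675169 to 7693254), had 7.78, 6.78 and 6.52 CPM in FL and 1.02, 2.02 and 0.31 in ML, on 210 to 234 counts in FL and 10 to 39 in ML. The FL libraries lay close together and above every ML and control library, controls having 0.684 to 1.48 CPM. The log2 difference was 2.69 (SE 0.58, edgeR adjusted p 0.238), and 3.36 without ML 9. Asns passed with limma-voom and sample quality weights at an adjusted p of 0.00787 and with DESeq2 at 0.00299. The ATF4 response as a list did not share this, with 18 of 28 above 0 at a median of 0.27, or 0.36 without ML 9. Vldlr, a lipoprotein receptor on the same list, lay the other way with 0.704, 0.376 and 0.291 CPM in FL and 2.55, 1.37 and 3.07 in ML (-2.36, SE 0.58). Vldlr was chosen after its values were seen.

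Bhlha15, a transcription factor of secretory cells and of the unfolded protein response, had 14.1, 1.33 and 0.903 CPM in FL and 0.21, 0.13 and 0.124 in ML. FL 5 was far above FL 6 and FL 7, and all 3 were above all ML libraries. The log2 difference was 5.06 (SE 1.04). The unfolded protein response list had 23 of 29 above 0 at a median of 0.37, or 0.30 without ML 9, with Eif2ak3, the kinase PERK, at 1.53 (SE 0.49), chosen after its values were seen.

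A further 8 of the 12 genes taken by the naming rule as higher in FL follow. Tbx3, a T-box factor of pericentral hepatocytes, had 84.9, 34.4 and 30 CPM in FL and 9.09, 7.63 and 6.51 in ML (2.68, SE 0.59). Ccnd1, cyclin D1 of the cell cycle, had 74.1, 22.2 and 51.9 CPM in FL and 14.9, 2.22 and 4.96 in ML (2.73, SE 0.71). Atxn1, a transcriptional co-repressor, lay at 2.61 (SE 0.59) and Bhlhe40, a clock repressor, at 1.95 (SE 0.49). The semaphorin receptor Plxnb1 lay at 1.79 (SE 0.45), the macrophage growth factor Csf1 at 1.95 (SE 0.50), the pyrimidine synthesis enzyme Cad at 1.89 (SE 0.49) and Fubp1, which binds single-stranded DNA upstream of Myc, at 1.56 (SE 0.39). In the trend-corrected fit Tbx3, Ccnd1, Atxn1 and Bhlhe40 lay at 2.18, 2.57, 1.93 and 1.76. Plxnb1, Csf1, Cad and Fubp1 lay at 1.02, 1.55, 1.22 and 1.07 there. As lists, pericentral markers had 12 of 17 above 0 at a median of 0.35, or 0.36 without ML 9, and cell cycle genes 28 of 41 at 0.33, or 0.19 without ML 9.

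A further 3 genes were among the lowest p in ML. Hsd17b6, which acts on androgens and retinol, had 127, 96.9 and 89.6 CPM in FL and 177, 418 and 614 in ML (-1.95, SE 0.41). Retsat, a retinol saturase, had 198, 154 and 216 CPM in FL and 300, 695 and 801 in ML (-1.66, SE 0.38). Tpm2, a tropomyosin of muscle and other contractile cells, had 2.93, 4.75 and 3.38 CPM in FL and 12, 75.4 and 8.81 in ML (-3.11, SE 0.73), and -1.52 without ML 9, the library in which skeletal muscle markers stood out. The part of those markers in the Tpm2 difference was tested only by leaving out ML 9.

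Secreted proteins of mucosal surfaces had 7 of 16 members tested, 2 above and 5 below 0, at a median of -1.67, or -1.95 without ML 9. Dmbt1, a scavenger protein of mucosal and biliary epithelium, had 0.222, 0.0869 and 0.0291 CPM in FL and 101, 10.2 and 0.403 in ML, so its log2 difference of -8.39 (SE 1.80) rested mainly on ML 8 and ML 9. Tff2, a trefoil factor, had 0.0869 to 0.116 CPM in FL and 1.08, 6.72 and 0.434 in ML (-4.63, SE 0.95), and lay at -2.83 without ML 9. Wfdc2, a protease inhibitor of epithelia, was more even, with 2.22, 1.88 and 2.53 CPM in FL and 11.5, 24.7 and 10.5 in ML (-2.81, SE 0.52).

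Spink4, too low to test, was at 0 in every FL library and had 2.26, 3.85 and 0 CPM in ML. The mucin Muc1 had 0.521 to 0.593 CPM in FL and 3.84, 0.978 and 0.341 in ML. Krt19, a keratin of bile duct cells, had 1.96, 1.39 and 0.903 CPM in FL and 11.6, 3.72 and 0.589 in ML. The summed level of 14 cholangiocyte markers was 960.3, 494.3 and 414.9 CPM in FL and 432.3, 495.9 and 280.6 in ML, and the 12 tested lay at a median of 0.27, or -0.10 without ML 9. The part of biliary cells in the mucosal genes was not tested. Spink4, Muc1 and Krt19 were chosen after their values were seen.

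Enzymes of DNA methylation and histone modification, often studied as carriers of parental effects, had 60 members tested, 52 above and 8 below 0. The median was 0.69, or 0.68 without ML 9, 0.32 in the trend-corrected fit and 0.14 with a surrogate variable. The members' median exon length was 6903.5 bp. None passed, and 18 had an unadjusted edgeR p under 0.05 as higher in FL, against 7.59% over all genes. In 25 of the 60 every FL library lay above every ML library, against 16.6% over all genes. The mitochondrial deacetylase Sirt3 was the 1 member that lay higher in ML by either measure (12.4% and 15.1% over all genes), at -1.56 (SE 0.54), or -0.83 without ML 9, and was chosen after its values were seen. The histone H3 lysine 4 methyltransferase Kmt2a lay at 2.24 (SE 0.65) and the lysine demethylase Kdm4a at 1.86 (SE 0.56).

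The maintenance DNA methyltransferase Dnmt1 had 12, 8.83 and 10.4 CPM in FL and 6.38, 1.11 and 4.37 in ML (1.38, SE 0.52). The de novo enzyme Dnmt3a had 25.1, 14.1 and 10.7 CPM against 6.59, 4.56 and 5.89 (1.55, SE 0.50), and Tet3, which oxidises methylcytosine, 22.7, 17.4 and 10.1 CPM against 7.33, 1.43 and 5.95 (1.75, SE 0.67). In the trend-corrected fit these became 0.94, 0.70 and 0.94. Dnmt1, Dnmt3a and Tet3 were chosen after their values were seen. Imprinted genes, which are expressed from 1 parent's allele, had 20 of 37 tested members above 0 and 17 below, at a median of 0.13, or 0.17 without ML 9. Total counts do not say which parent's allele was read.

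Cytosolic ribosomal protein genes lay below 0 in 79 of 79 members, at a median of -1.88, and nuclear oxidative phosphorylation genes in 71 of 73, at -1.49. The members' median exon lengths were 1770 and 1718 bp, and both lists followed ML 9. Without it the medians were -0.64 and -0.66, with 78 of 79 and 71 of 73 members still below 0. In the trend-corrected fit they were -1.26 and -0.84, and -0.51 and -0.50 in that fit without ML 9. With a surrogate variable they were 0.05 and -0.10. Rpl36 had 96.9, 141 and 162 CPM in FL and 173, 2600 and 299 in ML, and Ndufb9, a complex I subunit, 163, 241 and 313 CPM in FL and 367, 3240 and 564 in ML. ML 9 exceeded its nearest ML neighbour several-fold in both, and ML 8 and ML 10 still lay above all FL libraries. Rps25 (-2.43, SE 0.78), Ndufa7 (-2.75, SE 0.87) and Ndufb7 (-2.35, SE 0.75) had the same pattern. Without ML 9 the log2 differences were -0.84 for Rpl36, -0.98 for Ndufb9, -0.82 for Rps25, -0.99 for Ndufa7 and -0.78 for Ndufb7.

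Hepatokines, proteins that the liver secretes as hormones, lay at a median of -0.89 with 9 of 21 above 0, and at 0.29 without ML 9, so the direction of the list turned on that library. Selenop, the plasma selenium carrier, had 4470, 3470 and 7220 CPM in FL and 9010, 25000 and 14400 in ML (-1.68, SE 0.55). Rbp4, the retinol carrier, lay at -1.12 (SE 0.40) and Lect2 at -1.34 (SE 0.48), and these became -0.64 and -0.61 without ML 9.

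Acute phase genes had 24 of 32 above 0 at a median of 0.56, which was 0.58 without ML 9 and -0.13 with a surrogate variable. Stat3, the transcription factor of the response, had 171, 154 and 102 CPM in FL and 51, 25.4 and 48.4 in ML (1.77, SE 0.61). Saa3 (-2.08, SE 0.87) and the iron hormone Hamp (-1.41, SE 0.66) lay the other way, with ML 9 highest at 75 and 2490 CPM, and became -0.47 and -0.36 without ML 9. TGF-beta and matrix genes had 36 of 49 above 0 at a median of 0.56, 0.41 without ML 9 and 0.11 in the trend-corrected fit. The receptor Tgfbr2 lay at 1.57 (SE 0.48), fibronectin Fn1 at 1.44 (SE 0.48) and Col6a3 at 1.27 (SE 0.46), which became 1.09, 0.70 and 0.48 in the trend-corrected fit.

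Immediate early genes, which respond to stimuli within minutes, had 16 of 26 above 0 at a median of 0.64, 0.42 without ML 9 and -0.32 with a surrogate variable. Egr1 had 6.59, 26.6 and 0.903 CPM in FL and 0.893, 0.456 and 1.43 in ML, with overlap, at 3.57 (SE 1.03). Fos lay at 2.34 (SE 0.84) and Junb at 1.77 (SE 0.66). Against the controls that both share, 25 of 26 members lay below 0 in FL and 25 in ML, at medians of -1.49 and -1.61, and controls had 47 to 227 CPM of Egr1. Ppp1r3g, which directs protein phosphatase 1 to glycogen, was also highest in controls, with 33 to 50.8 CPM against 0.185 to 0.349 in FL and 0.105, 1.5 and 6.36 in ML, where FL and ML overlapped. Its log2 difference between FL and ML was -3.15 (SE 0.97), and it was chosen after its values were seen.

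Markers of erythroid, T and NK, and B and plasma cells followed ML 9. In bulk tissue, fewer cells of a type and less RNA per cell cannot be told apart. The summed level of 10 erythroid markers was 140.9 to 268.4 CPM in FL and 332.5, 2143 and 398.4 in ML. Hbb-bs, a beta-globin, had 24.4, 57.3 and 90.5 CPM in FL and 130, 1510 and 176 in ML (-3.40, SE 1.11), with Hbb-bt at -3.06 (SE 1.04) and Hba-a2 at -2.02 (SE 0.69). These became -1.43, -1.27 and -0.91 without ML 9. The 7 members tested lay at a median of -1.86, or -0.80 without ML 9, all below 0 in both cases. Haemoglobin genes are near-identical copies that can share reads.

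T and NK cell markers lay below 0 in 15 of 16 members at a median of -1.07, or -0.54 without ML 9, with summed levels of 8.30 to 11.9 CPM in FL and 12.1, 41.9 and 11.5 in ML. Cd3d lay at -2.95 (SE 0.87), Trbc2 at -2.58 (SE 0.84) and Nkg7 at -2.08 (SE 0.78), becoming -1.29, -1.05 and -1.28 without ML 9. B and plasma cell markers lay below 0 in 14 of 15 at a median of -0.87, or -0.04 without ML 9. Iglc2 lay at -3.11 (SE 1.20), Igha at -1.23 (SE 0.52) and Igkc at -1.36 (SE 0.71), and without ML 9 these were -1.36, -1.24 and -0.26. Neutrophil markers had 3 of 5 tested members above 0 at a median of 0.20, and 5 of 5 at 1.22 without ML 9. Their summed levels were 5.667, 6.515 and 3.523 CPM in FL and 2.6, 10.37 and 1.458 in ML. The part of all these cells in the differences above was not tested.

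**Figure D5:**
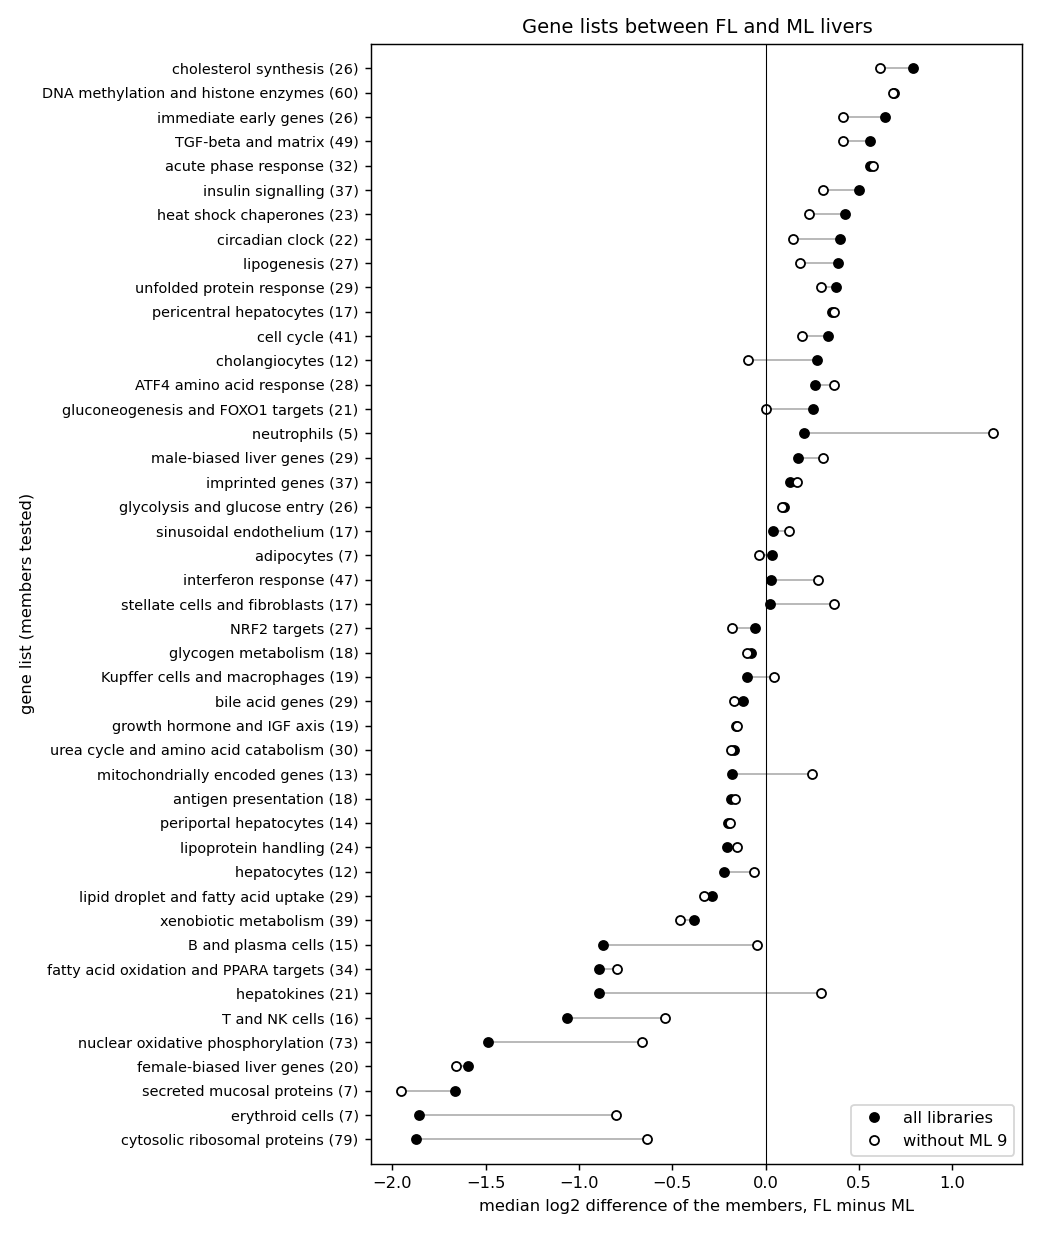
Median log2 difference between FL and ML of the members of each of the 45 lists with at least 5 members tested (number in brackets), with all libraries (filled) and without ML 9 (open). Female-biased genes, fatty acid oxidation genes and PPARA targets, and DNA methylation and histone enzymes have nearly the same median without ML 9, while ribosomal protein, oxidative phosphorylation and B cell lists move toward 0 and hepatokines cross it.

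With all libraries, the other lists with at least 5 members tested lay within 0.5 of 0, and Cyp2b9 was the member of any list that passed. Xenobiotic metabolism had 29 of 39 below 0 at a median of -0.39, or -0.46 without ML 9. Lipid droplet and fatty acid uptake genes had 22 of 29 below 0 at -0.29, or -0.33 without ML 9, and heat shock chaperones 19 of 23 above 0 at 0.42, or 0.23 without ML 9. Gluconeogenesis and FOXO1 targets, which insulin represses, lay at 0.25 with 13 of 21 above 0, and at 0.00 without ML 9. Glycogen metabolism lay at -0.08, glycolysis and glucose entry at 0.10, bile acid genes at -0.12 and the urea cycle and amino acid catabolism at -0.17. Without ML 9 these were -0.10, 0.08, -0.17 and -0.18. Markers of Kupffer cells and macrophages lay at -0.10, of sinusoidal endothelium at 0.04 and of stellate cells and fibroblasts at 0.02, and without ML 9 at 0.04, 0.12 and 0.36.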

How the data were processed

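Per the labels' protocols, the libraries were directional, made from polyadenylated liver RNA and read from both ends. The authors deposited a table of raw gene counts. Per the submitters' processing notes they used STAR, featureCounts and GRCm38. No source used here gives versions, annotation or strand setting, so reads of overlapping, antisense and near-identical genes are uncertain. Of 46071 rows, 45229 matched GENCODE M21 by identifier, and the other 842 took up to 0.0659% of a library's counts.

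All 10 libraries were fitted in edgeR 4.0.16 (R 4.3.3) with TMM factors, filterByExpr at a minimum count of 10 and a robust quasi-likelihood F test, a coefficient per group and the contrast FL minus ML. The fit held 14820 genes with 7 residual degrees of freedom, with a common biological coefficient of variation of 0.448. The threshold was a Benjamini-Hochberg adjusted p under 0.05 over all genes, two-sided. The SE is the log2 difference divided by the square root of F. The procedure was tested on simulated counts. Pairs of libraries within FL and ML gave a chi-square of 82.5 to 573 per degree of freedom, beyond counting noise, and each was kept as a replicate.

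The 48 gene lists (34 pathways, 14 cell types), the members and the naming rule were chosen with earlier results of these data known. A list is described by counts and its median, with no test of the list. Named genes are, per direction, the 12 with the lowest p among those whose higher group averaged 1 CPM or more and whose FL and ML libraries did not overlap, the 3 lowest-p members of each list with a median of at least 0.5 in size, and Insr, Alb and sex chromosome genes. Pseudogenes and genes whose symbol is a Gm, Rik or clone identifier were not named. Single results of a few list genes are not given. Others are said to have been chosen after their values were seen. Alternatives were DESeq2 1.42.0, limma-voom 3.58.1 with and without sample quality weights, RLE and upper-quartile factors, no filter or a minimum of 50, FL and ML only, offsets that take out each library's trend with exon length and GC content (the trend-corrected fit), a surrogate variable (sva 3.50.0), a threshold of 0.10 and libraries left out. Leaving out each control, and the trend-corrected fit without ML 9, were added after seeing the data. Promoter sequences are from RefSeq.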

Additional observations from a re-analysis of the deposited data

Results flagged for a closer look

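Cyp2b9 differed between the groups in its distance from the same 4 controls. It lay at -6.51 on the log2 scale in FL and at 0.30 in ML, and the tested difference of these, which is the contrast of FL with ML, was -6.81 (edgeR adjusted p 0.0144). Since both distances use the same controls, they are not independent of each other.

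In 84 named genes the 4 controls were searched for a library far from the other 3, and 9 had one, where chance gives about 5 in 100. Control 3 was highest for Moxd1 at 0.518 CPM. Control 1 was the library apart in the 8 others. It was lowest for Cad (2.68 CPM), Eif2ak3 (4.33) and Tet3 (3.87), and highest for Rpl36 (452), Rps25 (520), Ndufb9 (711), Ndufa7 (274) and Ndufb7 (181). Control 1 had the lowest total, 18655506 counts, and its short genes lay above their mean by 0.51 on the log2 scale. The controls' means are not part of the contrast of FL with ML, but the controls enter its spread, low-count filter and TMM factors. FL and ML hold 3 libraries each and were not searched.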

How the results depend on the processing

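The number of genes that passed was 1 and became 31 with DESeq2 (8 higher in FL, 23 higher in ML), 4 with limma-voom and sample quality weights, 2 without a filter on low counts, 2 in the trend-corrected fit, 2 at an adjusted p under 0.10 and 0 with FL and ML alone, where the lowest edgeR adjusted p was 0.0644 and 3205 genes had an unadjusted p under 0.05. Leaving out 1 library gave 0 to 2, with 0 in edgeR without FL 5, FL 6, FL 7 or ML 8 (882 to 3576 genes at an unadjusted p under 0.05) and 2 without control 3. Limma-voom, RLE and upper-quartile factors, the stricter filter, a surrogate variable and ML 9 left out (alone, with control 1, or in the trend-corrected fit) gave 1, which was Moxd1 with limma-voom and Cyp2b9 in the others. At an unadjusted p under 0.05 the count was 277 with a surrogate variable. That variable was highest in ML 9 (0.70) and negative in all FL libraries, so it overlaps the groups compared. Among 84 named genes, 20 of 1915 alternative values had the opposite sign, none of a gene that passed. With a surrogate variable these were Saa3 (0.19), Hamp (0.12), Rpl36 (0.064), Igkc (0.39), Ddx3y (0.15), Uty (0.0995) and Kdm5d (-0.10). In the trend-corrected fit they were Insr (-0.12, and -0.21 also without ML 9), Alb (0.0691), Eif2s3y (0.0284) and Kdm5d (-0.30, and -0.44 also without ML 9), and Igkc was at 0.00 in that fit without ML 9. Kdm5d was also at -0.0776 with limma-voom and sample quality weights, -0.0345 without ML 9 and -0.0176 without control 1 and ML 9. Leaving out 1 library gave -0.12 (without FL 5) to 0.46 for Kdm5d, and -0.38 to 0.13 (without ML 10) for Eif2s3y, also above 0 without FL 6 (0.0105). With all libraries they were at 0.28 and -0.14. The cause was not tested. No paired analysis was possible because the labels give no litter or other link between FL and ML libraries. Their numbers run on across the groups.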
